A study of Mus musculus with 9 samples.

Results

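The genes described here encode the proteins of the cytosolic ribosome. They were chosen by name alone: array target names made of RPL or RPS and a number, with or without a closing A, L, X or Y, together with RPLP0, RPLP1, RPLP2 and RPSA. On the array 97 of 45281 probes carried such a name, for 65 gene names. A probe was kept when its signal passed the detection limit (0.95 or more in the deposited detection column) on at least 3 of the 9 arrays. That left 77 of 18925 kept probes and 56 of 13001 genes, of which 31 belong to the large (60S) and 25 to the small (40S) subunit. The other 9 names (RPL14, RPL17, RPL39L, RPL3L, RPL6, RPS15A, RPS18, RPS20 and RPS23) had probes that were detected on none of the 9 arrays. The values of those probes gave no level for their genes and were not used.

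RNA came from gastric tumours of mice that the sample labels name gp130Y575F/F, with the spelling kept as given. The mice carry a substitution in the receptor subunit that IL6 and IL11 share. The mice were on a mixed 129/BL6 background and aged 6 to 8 weeks. The IL6 group received 1 intraperitoneal injection of 5 µg recombinant human IL6 in 200 µl PBS, the IL11 group 5 µg recombinant human IL11 in 200 µl PBS, and the PBS group 200 µl PBS as vehicle. Tumours were taken 60 min later from 3 mice in each group and measured on 1 Illumina bead array per mouse. All 3 groups carried the gp130 substitution and tumours, so a response of normal stomach or of unmutated gp130 was not measured. Levels below are log2 signals after background correction and quantile normalization, and changes are differences of group means with the standard error (SE) of limma. Probes differ in brightness, so a level was compared only between arrays and not between genes.

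A ribosome is built from ribosomal RNA and a set of proteins, of which each is present in a single copy except for the acidic stalk proteins. The 40S subunit reads the messenger RNA and the 60S subunit joins the amino acids. Ribosomal protein messenger RNAs are among the most abundant and most stable transcripts of a dividing epithelium. In mammals they start with a run of pyrimidines, the 5′ terminal oligopyrimidine (TOP) tract, through which the kinase mTORC1 controls their translation more than their amount. IL6 and IL11 signal through gp130 to the transcription factor STAT3 and to growth kinases.

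The start sites of 6 ribosomal protein genes are shown because a pyrimidine run at the start is the feature by which these messages are grouped. Each line runs 5′ to 3′ on the strand of the gene, from 60 bases before to 30 bases after the annotated start (RefSeq, GRCm38.p6), and capitals mark the letters CTTTC where they stand at the start. The intervals are chr7:4792905-4792994, plus strand for Rpl28, chr7:141447591-141447680, plus strand for Rplp2, chr7:45128716-45128805, minus strand for Rpl13a, chr4:86857338-86857427, minus strand for Rps6, chr17:27635215-27635304, minus strand for Rps10, and chr3:86142639-86142728, minus strand for Rps3a1.
Rpl28: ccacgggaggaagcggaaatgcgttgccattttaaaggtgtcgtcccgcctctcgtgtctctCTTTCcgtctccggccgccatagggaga
Rplp2: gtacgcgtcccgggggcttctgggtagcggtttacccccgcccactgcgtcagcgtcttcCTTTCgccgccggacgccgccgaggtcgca
Rpl13a: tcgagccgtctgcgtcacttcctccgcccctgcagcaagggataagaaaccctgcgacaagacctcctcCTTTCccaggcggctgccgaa
Rps6: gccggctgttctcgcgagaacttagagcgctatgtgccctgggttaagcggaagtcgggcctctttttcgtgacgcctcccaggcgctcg
Rps10: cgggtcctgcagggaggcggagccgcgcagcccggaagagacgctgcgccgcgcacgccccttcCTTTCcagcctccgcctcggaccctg
Rps3a1: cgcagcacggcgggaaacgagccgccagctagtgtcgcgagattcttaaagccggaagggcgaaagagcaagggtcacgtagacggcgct
In Rpl28, Rplp2, Rpl13a and Rps10 the letters CTTTC begin at base 3, 1, 10 and 5, counting from 1 at the annotated start, the first base after the 60 shown before it. The shown windows of Rps6 and Rps3a1 do not hold these letters. That of Rps6 nevertheless has a pyrimidine run, ctctttttc, from base 1 of the annotated start. The search for CTTTC counts those letters only, so it leaves out other pyrimidine runs and is no count of TOP tracts. A start sequence was given in the RefSeq table for 43 of the 56 genes. CTTTC on the strand of the gene, from 15 bases before to 30 bases after the start, occurred in 14 of the 43 (32.6%), against 6.7% of the 27025 genes of the table. The letters CCGGAAG on either strand, from 250 bases before to 50 bases after the start, occurred in 21 of the 43 (48.8%), against 9.9% of all genes. AAGATGG on either strand of the same window was present in 6 of the 43, against 7.3% of all genes. TATAA between 60 and 15 bases before the start was present in 2 of the 43 (4.7%), Rps26 and Rps9, against 5.8% of all genes. These letters, and the 6 genes shown, were picked after the start sequences had been viewed, and the counts are descriptions with no test.

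The tumours carried transcripts of the gastric surface lining. Of 6 markers of surface mucous cells 5 were measured (Gkn1, Gkn2, Gkn3, Muc5ac and Muc1), with an average level per array of 12.31 to 13.45 with IL6, 13.08 to 13.39 with IL11 and 12.25 to 13.42 with PBS. Of 6 parietal and chief cell markers only Pgc, the pepsinogen C gene, passed the detection filter. The PBS tumours were the least alike. PBS replicate 2 had B and plasma cell markers at 9.50 and T and NK cell markers at 7.49, against at most 5.67 and 5.13 on the IL6 arrays and 5.35 and 4.84 on the IL11 arrays (2 measured genes in each list), and PBS replicate 3 had the highest squamous forestomach markers, at 9.50. Macrophage markers (10 genes) ran from 6.99 to 7.42 with IL6, 6.59 to 7.34 with IL11 and 7.62 to 7.99 with PBS. In bulk tissue, fewer cells of a type and less RNA per cell cannot be told apart. Of 6 known gp130 response genes 5 passed the threshold with IL6 and 2 with IL11, among them the feedback inhibitor gene Socs3 with IL6 (log2 change 2.32, adjusted p = 0.0133 in limma). These response calls were not stable to single arrays, and without IL6 replicate 1 none of the 6 passed with either cytokine. With IL11 none passed without IL6 replicate 3 or without any 1 of the 3 IL11 arrays. Leaving out an IL6 array does not alter the IL11 minus PBS changes, only the estimate of spread that all groups share. Per array, the 6 genes averaged 11.62 to 11.79 with IL6, 11.38 to 11.56 with IL11 and 9.47 to 10.31 with PBS.

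Within 60 min of IL6, no ribosomal protein gene passed the threshold. The question of this comparison was which transcripts of the tumour respond to IL6. In limma 0 of 56 genes had an adjusted p under 0.05, against 36 of all 13001 genes (0.277%). Over all genes that count was 1 without IL6 replicate 1, 3 without IL6 replicate 3 and 524 without PBS replicate 1. At an unadjusted p under 0.05 the count was again 0 of 56, against 15.2% of all genes. The lowest adjusted p among the 56 was 0.330, for Rpl34. The median log2 change was -0.10 over the 56 genes, -0.11 over the 60S and -0.09 over the 40S members, and -0.03 over all genes. The change was above 0 for 19 of the 56, and above 0 for 46.8% of all genes. The median size of change was 0.145 for members, against 0.259 over all genes.

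With IL11 the count was also 0 of 56, against 17 of all 13001 genes (0.131%). Over all genes that count was 0 in limma when any 1 of the 3 IL11 arrays, IL6 replicate 1 or IL6 replicate 3 was left out, with 8.74% to 13.2% of genes at an unadjusted p under 0.05, and 353 without PBS replicate 1. At an unadjusted p under 0.05 there were 2 members, 1 higher and 1 lower (Rpl22), or 3.57% of the 56 against 14.1% of all genes (6.75% higher and 7.38% lower). The median log2 change was 0.01 over the 56 genes, 0.03 over the 60S and 0.01 over the 40S members, and -0.02 over all genes. The change was above 0 for 33 of the 56 members, and above 0 for 47.3% of all genes. The median size of change was 0.141 for members and 0.253 for all genes. Both comparisons use the same 3 PBS arrays, so the 2 sets of changes are not independent of each other.

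IL11 and IL6 were also set against each other, which does not involve the PBS arrays. None of the 56 members passed, none of the 13001 genes did (0%), and 0 of 56 members reached an unadjusted p under 0.05, against 2.38% of all genes. The median change, IL11 minus IL6, was 0.15 over the members and below 0.01 in size over all genes (-0.00356). It was above 0 for 47 of the 56 members, and above 0 for 49.3% of all genes. Without the array of IL6 replicate 3 the median over the members was 0.02. With only the IL6 and IL11 groups fitted in limma, 1 of the 13001 genes and 0 members passed. In that fit 4.87% of all genes and 0 members had an unadjusted p under 0.05.

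The intervals show what sizes of change these arrays could leave undetected. For IL6 minus PBS, the whole 95% interval lay within 1 log2 unit of 0, a doubling or halving, for 51 of the 56 members. The exceptions were Rpl13a, Rpl21, Rpl34, Rps25 and Rps3a1. For IL11 minus PBS it did so for 53 members, with Rpl13a and Rps3a1 among the exceptions. For IL11 minus IL6 it did so for 54, with Rpl13a and Rps3a1 the exceptions. The IL11 minus IL6 intervals also use the spread of the PBS arrays, where these 2 genes had the largest SDs of the members. The SE of a log2 change had a median of 0.188 for members and 0.230 for all genes. A size of change over 1 was estimated for Rps3a1 only, with both cytokines (1 of 56 each), and for 4.67% of all genes with IL6 and 4.58% with IL11. A size over 0.5 was estimated for 2 members with IL6 (Rpl34 and Rps3a1) and 3 with IL11 (Rpl13a and Rps3a1 among them), and for 21.5% and 20.4% of all genes. Between IL11 and IL6 no member reached either size, as 0.338% and 4.43% of all genes did.

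**Figure D1:**
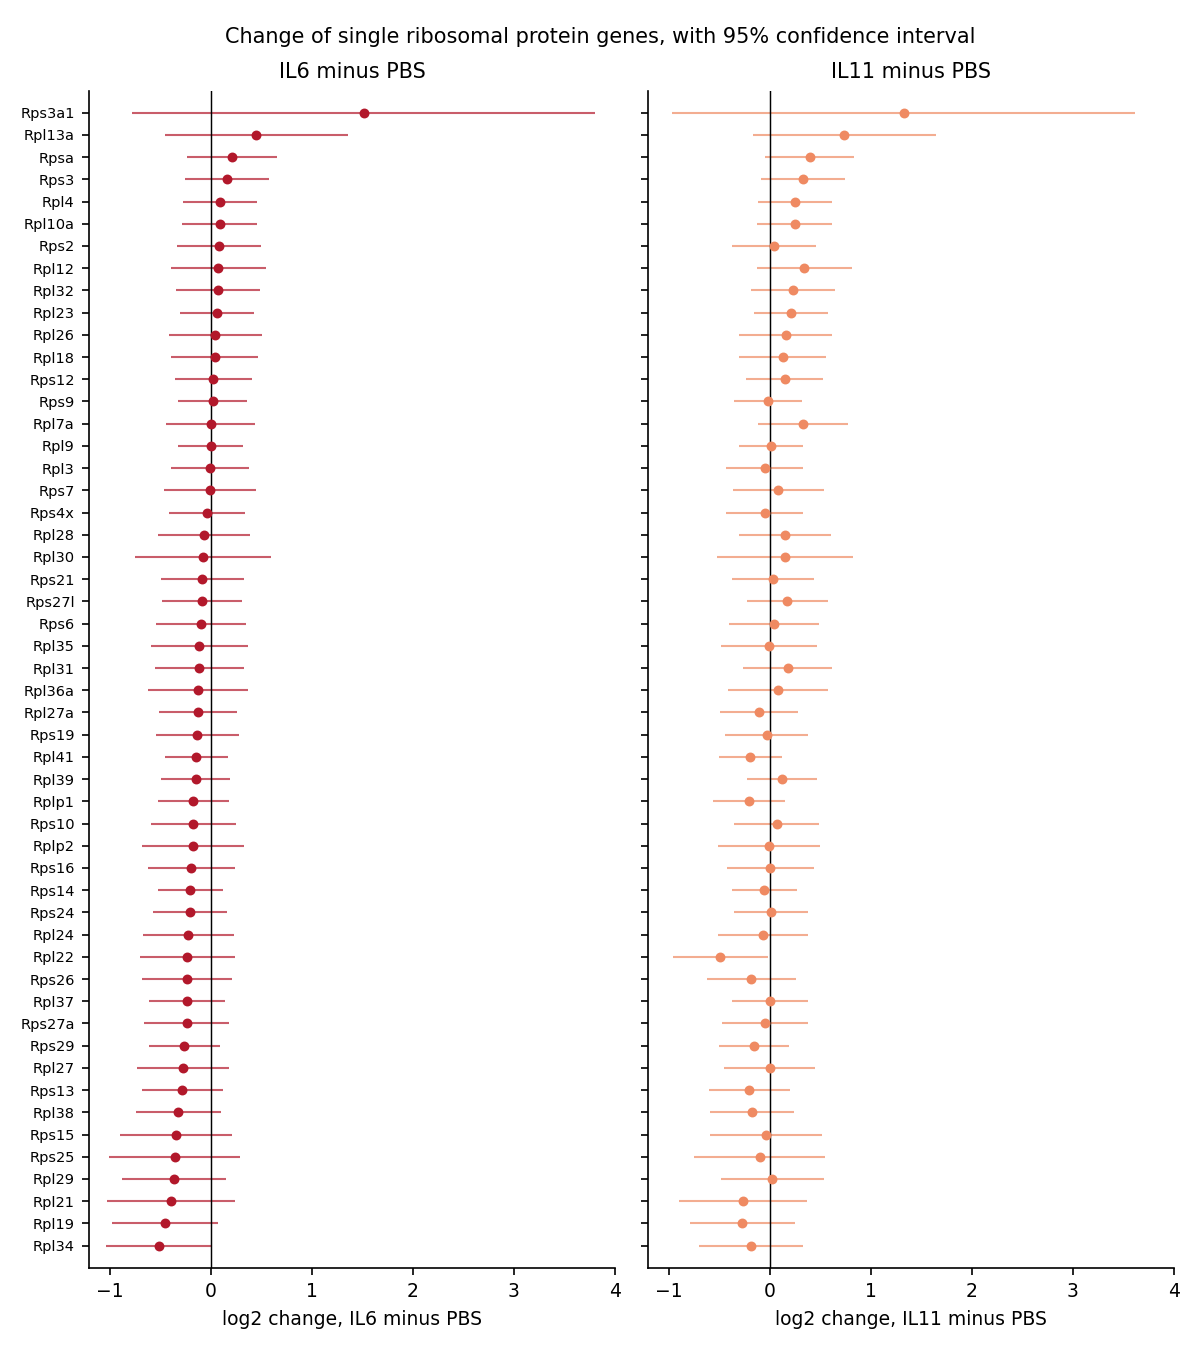
Log2 change of 52 of the 56 ribosomal protein genes for IL6 minus PBS (left) and IL11 minus PBS (right), sorted by the IL6 change, with points at the estimate and lines over the 95% confidence interval (n = 3 arrays per group). All IL6 intervals hold 0. With IL11 that of Rpl22 does not, and the gene does not pass after adjustment over all 13001 genes.

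The array of IL6 replicate 3 held less ribosomal protein signal than the other 8. Each member's level was set against its own mean over the 9 arrays. The median of these deviations over the 56 members was 0.11, -0.01 and -0.34 on the IL6 arrays, 0.09, 0.09 and 0.05 on the IL11 arrays, and -0.02, 0.05 and 0.07 on the PBS arrays. The IL6 replicate 3 array thus stood alone, while the other 8 lay between -0.02 and 0.11. On that array the median deviation was -0.40 for 60S members and -0.25 for 40S members, against 0.01 for all 13001 genes. It was the lowest of the 9 arrays for 29 of the 56 members (51.8%), and the lowest for 12.7% of all genes. Only 4 members were above their own mean there: Rpl3, Rpl41, Rplp1 and Rps3a1.

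In raw signal, before any normalization, the kept member probes held 3.79%, 3.22% and 3.01% of the summed probe signal on the IL6 arrays, 3.70%, 4.13% and 3.82% on the IL11 arrays, and 3.96%, 3.91% and 3.88% on the PBS arrays. IL6 replicates 2 and 3 were the lowest. Among the 100 brightest probes, 12 were member probes on the IL6 replicate 3 array, and 17 to 22 on each of the others. The mean raw signal of that array was 398, against 603 and 652 on the other IL6 arrays, 448 to 524 on the IL11 arrays and 300.1, 360.4 and 419 on the PBS arrays, so it was not the dimmest of the 9. Its share of detected probes, 39.9%, lay within the range of all arrays, 37.4% to 40.6%. Its neutrophil markers were at 7.33, within the 5.67 to 7.61 of the IL11 arrays, and its proliferation markers at 8.99, within the 7.95 to 9.14 of the PBS arrays. Its smooth muscle and endothelial markers, at 8.40 and 7.85, were the lowest averages of the 9 arrays for those lists. The next lowest were close, at 8.51 on IL6 replicate 1 and 7.87 on IL6 replicate 2. Its hepatocyte markers (2 genes) were also the lowest, at 7.07, with 7.13 on IL11 replicate 3. Its surface mucous markers were the highest, at 13.45, with 13.42 on PBS replicate 2. The part of any of these in the low member signal was not tested.

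Without IL6 replicate 3, the median change of the 56 members for IL6 minus PBS was 0.01, with 28 above 0. The median for IL11 minus IL6 was then 0.02, with 31 above 0. The count of members that passed stayed at 0 in both. The attention to this array came after its values had been seen.

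**Figure D2:**
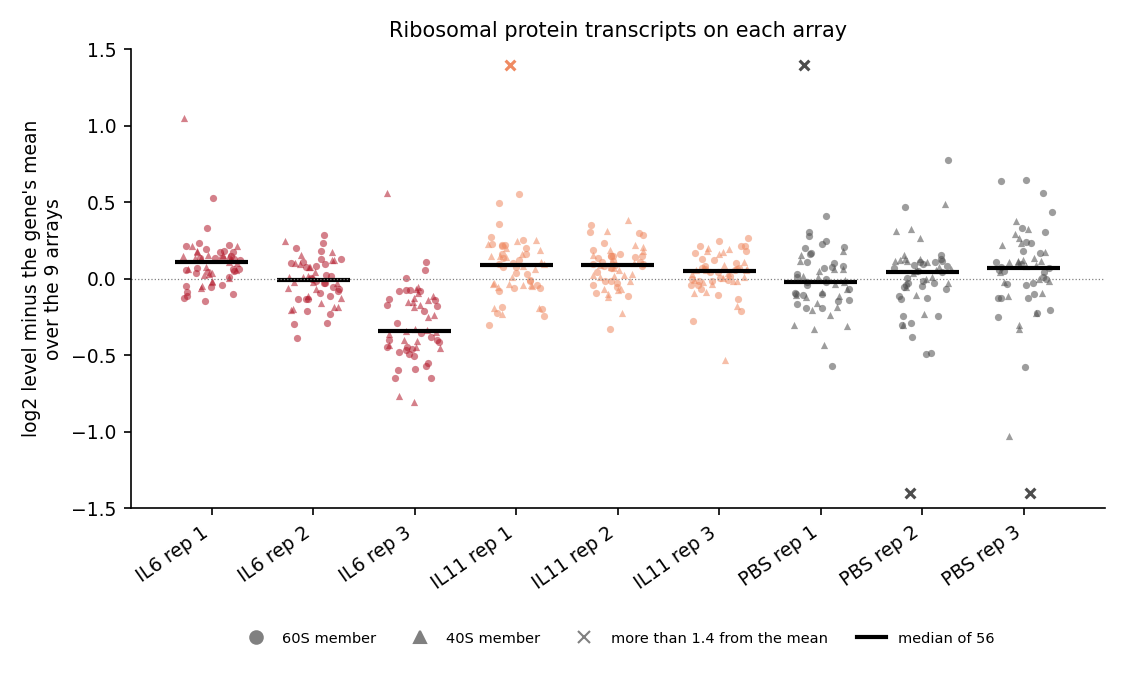
Deviation of each of the 56 genes from its own mean over the 9 arrays, in log2 units, by array, with circles for 60S and triangles for 40S members and a bar at the median. The median of IL6 replicate 3 is -0.34, and the medians of the other 8 arrays lie between -0.02 and 0.11. Crosses at the edges stand for values more than 1.4 from the mean, drawn at 1.4.

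With IL11 and with PBS, most ribosomal protein transcripts varied less among mice than the median gene. With IL6, where that array is included, they did not. The median SD of a member over 3 mice was 0.240 with IL6, 0.108 with IL11 and 0.164 with PBS, against 0.222, 0.184 and 0.333 over all genes. The SD was below the median of all genes for 26 of 56 members with IL6, 47 with IL11 and 48 with PBS. Most member probes are bright, with 37 of the 56 at a mean level of 13 or more, where the spread of array signals is usually narrow. Brightness and spread were not separated. Over the 9 arrays, IL6 replicate 3 included, 46 of the 56 members had a range under 1 log2 unit, and the median range was 0.619. The range over all genes was not computed. Rpl9, a 60S protein, was the most even, with levels of 14.50, 14.43 and 14.37 with IL6, 14.43, 14.41 and 14.50 with IL11, and 14.34, 14.52 and 14.43 with PBS.

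Rps3a1 had the widest range, 4.90 log2 units. It encodes a 40S protein at the platform where initiation factors bind, and the array calls it RPS3A. Its levels were 10.84, 9.89 and 10.35 with IL6, 11.25, 9.995 and 9.26 with IL11, and 11.33, 6.43 and 8.76 with PBS. The highest and the lowest of the 9 values were both PBS arrays, so the groups overlapped. The mean was 10.36 ± 0.47 with IL6, 10.17 ± 1.01 with IL11 and 8.84 ± 2.45 with PBS (SD, n = 3 each). The log2 change was 1.52 for IL6 (SE 1.02, adjusted p = 0.478 in limma) and 1.33 for IL11 (SE 1.02, adjusted p = 0.544), neither past the threshold. Leaving out 1 array at a time moved the IL6 change between 0.31 and 2.76 and the IL11 change between 0.12 and 2.57. Without PBS replicates 2 and 3 both changes turned below 0, to -0.97 for IL6 and -1.16 for IL11.

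The low reading on PBS replicate 2 was shared by some genes outside the ribosomal protein list. Pabpc1, the poly(A)-binding protein gene and a TOP message, had 11.86, 12.13 and 11.93 with IL6, 12.18, 12.20 and 11.86 with IL11, and 12.13, 7.26 and 11.33 with PBS. Ddx21, which encodes a nucleolar helicase, had 10.36, 10.07 and 10.24 with IL6, 10.30, 10.18 and 9.90 with IL11, and 10.37, 5.79 and 7.91 with PBS. In both genes PBS replicate 1 was level with the cytokine arrays and PBS replicate 2 was the lowest of the 9. Their log2 changes with IL6 were 1.73 (SE 0.993, adjusted p = 0.410) and 2.20 (SE 0.877, adjusted p = 0.288), neither past the threshold.

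Rpl13a, a 60S protein known in human cells from a complex that silences inflammatory messages, had the next widest range, 1.98. Its levels were 10.53, 9.72 and 9.94 with IL6, 10.56, 10.30 and 10.19 with IL11, and 10.26, 9.99 and 8.58 with PBS. PBS replicate 3 was low, and the other 8 arrays lay between 9.72 and 10.56. The log2 change was 0.45 for IL6 (SE 0.403, adjusted p = 0.591) and 0.74 for IL11 (SE 0.403, adjusted p = 0.414).

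Rpl22, a 60S protein that mouse T cells need for their development, had the lowest log2 change of the members with IL11. Its levels were 10.61, 10.73 and 10.34 with IL6, 10.35, 10.22 and 10.34 with IL11, and 10.37, 11.02 and 10.99 with PBS. All IL11 arrays were below all PBS arrays, the nearest pair being 10.35 and 10.37. The fold with IL11 was 0.713 (95% interval 0.515 to 0.989, unadjusted p = 0.0441, adjusted p = 0.344 in limma). The higher PBS values came from replicates 2 and 3. Smooth muscle markers (7 genes) averaged 9.54 and 9.79 on those 2 arrays, against 8.68 on PBS replicate 1. They averaged 9.19, 8.52 and 9.38 on the IL11 arrays and 8.51, 8.61 and 8.40 on the IL6 arrays. Macrophage markers (10 genes) averaged 7.62, 7.99 and 7.98 on the PBS arrays. Their averages were 7.34, 6.59 and 7.12 on the IL11 arrays and 6.99, 7.42 and 7.06 on the IL6 arrays. The part of these markers in the Rpl22 levels was not tested. Its paralog Rpl22l1 had log2 changes of 0.09 with IL6 and 0.30 with IL11, with adjusted p of 0.913 and 0.678.

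**Figure D3:**
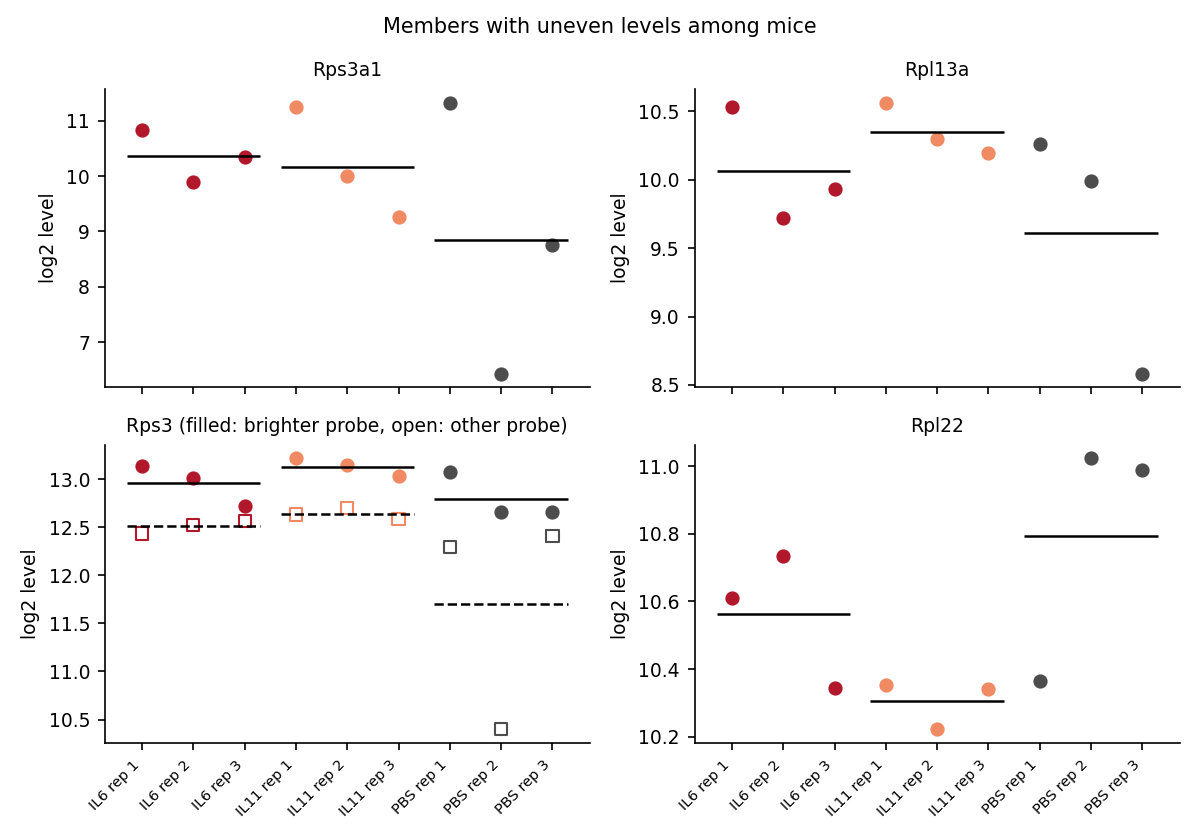
Log2 levels on each array for Rps3a1, Rpl13a, Rps3 and Rpl22, with points for arrays and lines for group means. PBS replicates 2 and 3 set the low PBS means of Rps3a1, and the second probe of Rps3 (open squares) is low on PBS replicate 2 alone, at 10.40.

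Rpl34, a 60S protein, had the lowest log2 change of the members with IL6. Its levels were 12.34, 12.37 and 11.81 with IL6, 12.38, 12.55 and 12.59 with IL11, and 12.56, 12.41 and 13.10 with PBS. All IL6 arrays lay below all PBS arrays. The fold with IL6 was 0.700 (95% interval 0.489 to 1.00, unadjusted p = 0.0515, adjusted p = 0.330). After it came Rpl19 at -0.45, Rpl21 at -0.39, Rpl29 at -0.36 and Rps25 at -0.35 on the log2 scale, with adjusted p between 0.372 and 0.556. In Rps25, whose product serves initiation on some viral messages, the IL6 levels were 11.80, 11.63 and 10.81, and the 6 IL11 and PBS arrays lay between 11.43 and 12.11. The single low value was IL6 replicate 3.

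For few members did the groups not overlap. All 3 IL6 arrays were below all 3 PBS arrays for Rpl34, Rpl38, Rpl41, Rps14 and Rps29 and above them for none, which makes 5 of 56 (8.93%) against 17.4% of all genes (8.32% higher and 9.07% lower). For IL11 against PBS the count was 8 of 56 (14.3%) against 19.6% of all genes (8.6% higher and 11% lower), with Rpl18, Rpl28, Rpl39, Rpl4, Rps12 and Rps27l higher and Rpl22 and Rpl41 lower. For IL11 against IL6 it was 3 of 56 (5.36%), Rpl34, Rpl39 and Rps24, all higher with IL11, against 10.4% of all genes (4.7% higher and 5.75% lower). Rpl41, a peptide that is the smallest ribosomal protein, stood in the first 2 comparisons. Its levels were 14.24, 14.07 and 14.21 with IL6, 14.15, 14.09 and 14.14 with IL11, and 14.37, 14.30 and 14.28 with PBS. The log2 changes were -0.14 with IL6 (adjusted p = 0.636) and -0.19 with IL11 (adjusted p = 0.531), neither past the threshold. The smallest two-sided p an exact permutation of 3 against 3 arrays can give is 0.10, so no separate test of single genes was run. Rpl38, Rpl41, Rps29, Rpl18, Rpl28 and Rps12 were named after their values had been seen.

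By role, the acidic stalk that recruits elongation factors showed no called change. Rplp1 had 14.23, 14.29 and 14.41 with IL6, 14.17, 14.44 and 14.22 with IL11, and 14.63, 14.40 and 14.41 with PBS. Rplp2 had 14.23, 14.16 and 13.40 with IL6, 14.15, 14.16 and 14.01 with IL11, and 14.03, 14.21 and 14.09 with PBS. The groups overlapped for both, and the low Rplp2 value was IL6 replicate 3. Rpl12, at the base of the stalk, had a log2 change of 0.07 with IL6 and 0.34 with IL11, with adjusted p of 0.882 and 0.454. The stalk anchor gene Rplp0 is named ARBP on the array and so falls outside the name rule. Its changes were 0.40 with IL6 (adjusted p = 0.485) and 0.54 with IL11 (adjusted p = 0.390).

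Around the messenger RNA channel and its decoding site, Rps2, Rps3, Rps9 and Rps15 were measured. Their median log2 change was 0.05 with IL6 and 0.01 with IL11, with 0 of 4 past the threshold. Rps3, at the channel entry, had 13.14, 13.01 and 12.73 with IL6, 13.22, 13.15 and 13.03 with IL11, and 13.08, 12.66 and 12.66 with PBS. Its second probe gave a larger change, 0.81 with IL6 and 0.94 with IL11 against 0.16 and 0.33 for the brighter one. That probe read 12.43, 12.53 and 12.56 with IL6, 12.63, 12.70 and 12.58 with IL11, and 12.29, 10.40 and 12.41 with PBS, where PBS replicate 2 was by far the lowest.

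Rps6, the substrate of S6 kinase downstream of mTORC1, had 13.43, 13.09 and 13.12 with IL6, 13.26, 13.32 and 13.49 with IL11, and 12.99, 13.33 and 13.62 with PBS. Its log2 change was -0.10 with IL6 (adjusted p = 0.830) and 0.04 with IL11 (adjusted p = 0.933). The PBS levels spanned those of both cytokine groups. Rpsa, which also encodes the laminin receptor precursor, was close to background, with 5.65, 5.38 and 5.31 with IL6, 5.50, 5.75 and 5.64 with IL11, and 5.01, 5.59 and 5.11 with PBS. Its probe was detected on 8 of the 9 arrays, the only member not detected on all of them, and its changes of 0.21 with IL6 and 0.40 with IL11 (adjusted p = 0.612 and 0.385) did not pass the threshold.

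Of proteins that line or surround the exit tunnel of the 60S subunit 7 were measured (Rpl4, Rpl19, Rpl22, Rpl26, Rpl31, Rpl35 and Rpl39), with 0 past the threshold and median changes of -0.11 with IL6 and 0.13 with IL11. Rpl39, which sits in the tunnel, had 13.61, 13.62 and 13.30 with IL6, 13.78, 13.75 and 13.82 with IL11, and 13.61, 13.66 and 13.71 with PBS. All IL11 arrays were above all arrays of both other groups, with changes of 0.13 against PBS (adjusted p = 0.712) and 0.27 against IL6 (adjusted p = 1.00). Rpl4, whose loop narrows the tunnel, had 10.28, 10.05 and 9.92 with IL6, 10.14, 10.25 and 10.32 with IL11, and 10.13, 9.86 and 9.98 with PBS. Rpl3, near the site of peptide bond formation, had a log2 change of -0.01 with IL6 and of -0.05 with IL11.

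Diamond-Blackfan anaemia in people, a failure of red cell production, is caused by loss of function of ribosomal protein genes. Of 11 such genes in the list used here 6 were measured (Rpl26, Rps7, Rps10, Rps19, Rps24 and Rps26). The list does not hold every gene linked to this anaemia. None of the 6 passed, and the median change of these 6 was -0.15 with IL6 and 0.04 with IL11. Rps19 had 14.35, 14.01 and 13.80 with IL6, 14.28, 14.14 and 14.05 with IL11, and 14.04, 14.26 and 14.25 with PBS. Rps14, known in people from the anaemia of chromosome 5q loss, had 14.26, 14.13 and 14.20 with IL6, 14.26, 14.43 and 14.34 with IL11, and 14.32, 14.43 and 14.44 with PBS. The IL6 levels of Rps14 were below all PBS levels, with a log2 change of -0.20 (SE 0.143, adjusted p = 0.504).

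Rps27a, which is made as a fusion with ubiquitin, had a log2 change of -0.24 with IL6 (adjusted p = 0.544) and -0.05 with IL11 (adjusted p = 0.923). Rps27l, a p53-induced paralog of Rps27, had 13.10, 13.24 and 12.67 with IL6, 13.30, 13.19 and 13.30 with IL11, and 13.10, 13.07 and 13.10 with PBS. Its IL11 arrays were all above the PBS arrays, by a mean of 0.18 (adjusted p = 0.640). Rps4l, named RPS4Y2 on the array, had changes of -0.70 with IL6 (adjusted p = 0.281) and -0.27 with IL11 (adjusted p = 0.635).

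In the direct comparison of IL11 with IL6, the highest changes were 0.39 for Rpl29, 0.33 for Rpl7a, 0.33 for Rpl34, 0.31 for Rps15 and 0.29 for Rpl31. Among the lowest were -0.26 for Rpl22, -0.19 for Rps3a1, -0.05 for Rpl41 and -0.04 for Rpl3. All of these had an adjusted p of 1.00. Rpl29 had 11.54, 11.28 and 10.90 with IL6, 11.45, 11.85 and 11.60 with IL11, and 11.90, 11.62 and 11.29 with PBS. Rps15 had 12.76, 12.57 and 11.83 with IL6, 12.83, 12.64 and 12.61 with IL11, and 12.49, 12.91 and 12.78 with PBS. In both genes IL6 replicate 3 was the lowest of the 9 arrays.

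For 10 further members (Rpl10a, Rpl24, Rpl27, Rpl30, Rpl32, Rpl36a, Rpl37, Rps16, Rps21 and Rps4x) the log2 change ran from -0.27 for Rpl27 to 0.09 for Rpl10a with IL6, and from -0.06 for Rpl24 to 0.25 for Rpl10a with IL11. Their lowest adjusted p over both comparisons was 0.484, with IL11. Between IL11 and IL6 their change ran from -0.01 for Rps4x to 0.28 for Rpl27.

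For 16 members several probes passed, and for 6 of them (Rpl21, Rpl23, Rpl27a, Rps13, Rps24 and Rps3) the changes of the probes differed by more than 0.5 log2 units in at least 1 comparison. The brightest probe of Rps13 gave -0.28 with IL6 and -0.20 with IL11, and the dim one 0.38 and 0.51. The brightest probe of Rps24 gave -0.20 and 0.01, and the other 2 gave 0.33 and 0.42, and 0.37 and 0.08. For Rpl27a they were -0.12 and -0.10 for the brightest, -0.24 and -0.13 for the next, and 0.37 and 0.36 for the dimmest. The 3 probes of Rpl21 were all dim, at mean levels of 7.35, 6.43 and 6.34, and gave -0.39, 0.31 and -0.20 with IL6. Those of Rpl23 gave 0.22, -0.08 and 0.45 with IL11. Ribosomal protein genes have many processed pseudogenes, and signal from such copies could not be told apart from that of the gene.

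Other genes of translation were examined from lists set up for this purpose. Of 15 measured TOP messages that do not encode ribosomal proteins, none passed with either cytokine, and their median changes were -0.01 with IL6 and 0.10 with IL11. The largest after Pabpc1 was Tpt1, a growth-associated TOP message, at 0.76 and 0.99 (adjusted p = 0.410 and 0.352). On IL6 replicate 3 the median deviation of this list from its own means was -0.06, where it was -0.34 for the ribosomal protein genes. On PBS replicate 2 it was -0.35.

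Of 6 elongation factor genes none passed, and the largest changes were those of Eef1e1 (1.15 with IL6 and 1.02 with IL11, adjusted p = 0.172 and 0.232) and Eef1b2 (0.51 and 0.60, adjusted p = 0.309 and 0.299). Of 11 subunits of initiation factor eIF3 none passed, with medians of 0.18 and 0.28. Their largest changes were 0.89 for Eif3c with both cytokines, 0.66 for Eif3a with IL6 and 0.74 for Eif3k with IL11. Of 22 other initiation factors none passed, and the largest were Eif1 (1.17 and 1.27, adjusted p = 0.386 and 0.382) and Eif1a (1.02 and 0.84, adjusted p = 0.109 and 0.209). Eif1a, which scans for the start codon, had 10.98, 10.85 and 11.22 with IL6, 10.77, 10.91 and 10.85 with IL11, and 10.27, 10.08 and 9.65 with PBS. Each cytokine array was above each PBS array, but the change did not pass the threshold.

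Of 32 measured ribosome assembly genes none passed with either cytokine. Among them 27 had a change above 0 with IL6 and 28 with IL11, against 46.8% and 47.3% of all genes, with median changes of 0.25 and 0.20. The median deviation of the list was 0.29, 0.01 and 0.03 on the IL6 arrays, 0.13, 0.28 and -0.09 on the IL11 arrays, and -0.02, -0.17 and -0.35 on the PBS arrays. Set against PBS replicate 1 alone, without PBS replicates 2 and 3, 22 of the 32 were above 0 with IL6 and 18 with IL11, with medians of 0.13 and 0.08, a setting chosen after seeing the data. After Ddx21 the largest were Nmd3, the 60S export adaptor, at 1.22 with IL6 (adjusted p = 0.209), and Pes1, a 60S assembly factor, at 0.89 with IL11 (adjusted p = 0.229). Of 22 genes of the RNA polymerase I and III machinery none passed, with medians of -0.07 and 0.05, and the largest changes were those of the polymerase I factor Rrn3 (0.76 and 0.57) and of Polr3k (0.61 and 0.56).

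Of 21 measured regulators of growth and translation, 1 passed with IL6 and none with IL11. Ddit4, which encodes an inhibitor of mTORC1, fell with IL6, to 9.59, 8.92 and 9.44, against 10.65, 10.64 and 10.62 with PBS (log2 change -1.32, SE 0.212, adjusted p = 0.0451 in limma). With IL11 it had 9.69, 9.73 and 10.15 (log2 change -0.78, adjusted p = 0.229). The groups did not overlap with either cytokine. When 1 array was left out, the IL6 call held in 1 of 9 cases, that without PBS replicate 1. Rheb, the activator of mTORC1, had the largest change of the list with both cytokines, 1.90 and 2.05 (adjusted p = 0.367 and 0.366). Its levels were 10.89, 11.06 and 10.81 with IL6, 11.12, 10.87 and 11.20 with IL11, and 10.77, 10.13 and 6.15 with PBS. The PBS replicate 3 array alone was low. Larp1, whose product binds the TOP tract, followed with 1.60 and 1.36 (adjusted p = 0.283 and 0.360), and was low on PBS replicate 2, at 4.66.

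The median change of the members depended on how arrays were scaled. With plain median scaling in place of quantile normalization it was 0.09 for IL6 minus PBS and 0.25 for IL11 minus PBS, while the median of all genes became 0.36 and 0.26. Set against that shift of all genes, the members lay lower with IL6 and level with IL11. With cyclic loess the medians were -0.23 and -0.04. Without PBS replicates 2 and 3, a setting chosen after seeing the data, they were -0.096 and 0.109. In every one of the 26 alternatives run, 0 members were called in each of the 3 comparisons.

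**Figure D4:**
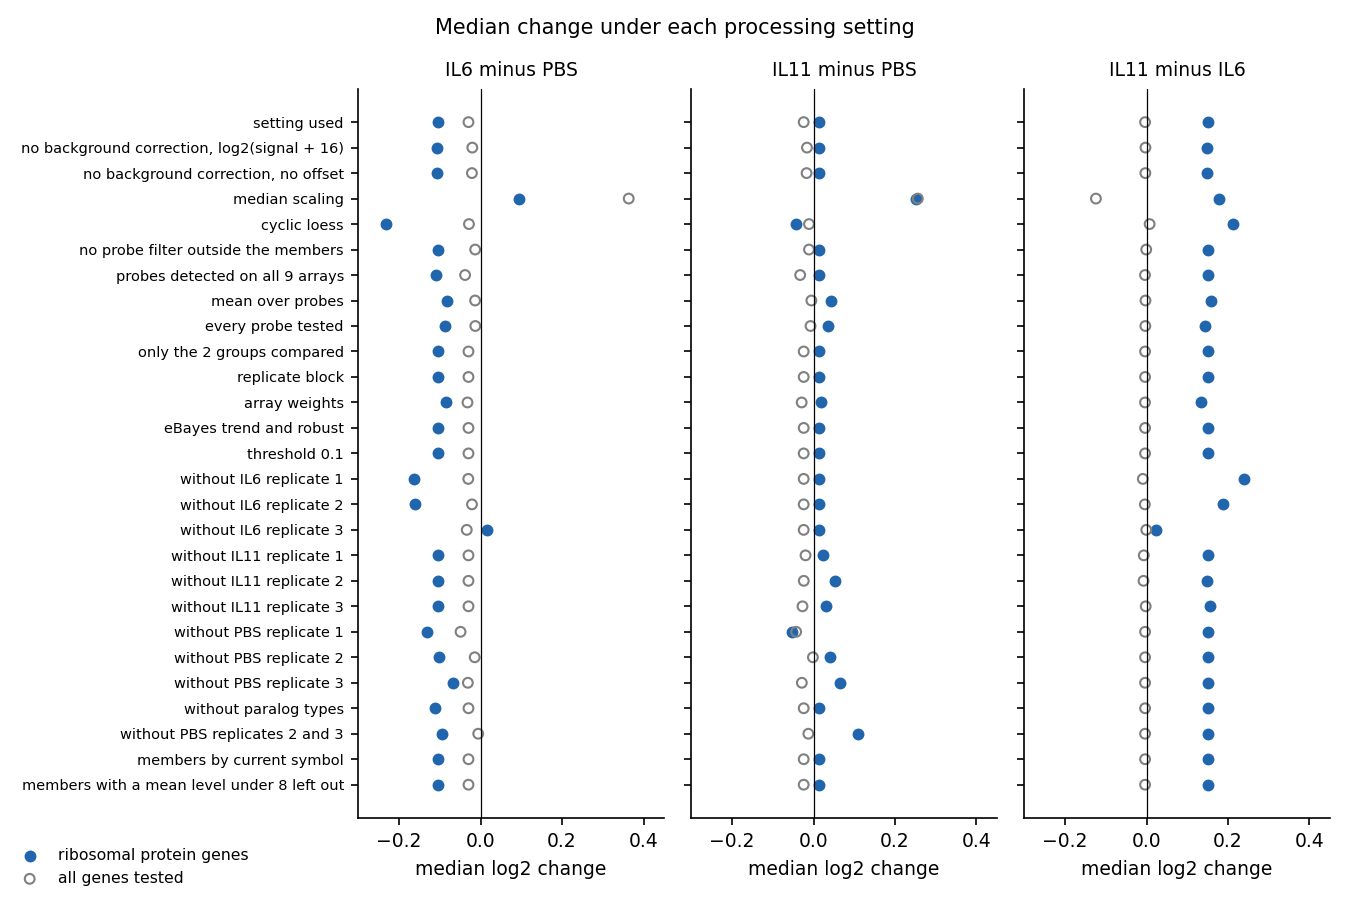
Median log2 change of the ribosomal protein genes (filled) and of all genes tested (open) under each processing setting, for the 3 comparisons. Filled points for IL6 minus PBS lie below 0 except with median scaling (0.09) and without IL6 replicate 3 (0.01), and those for IL11 minus IL6 lie closest to 0 without IL6 replicate 3 (0.02).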

How the data were processed

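Probe signals from 9 gastric tumours (3 mice per group, 1 array each) were used. Per the file headers, the deposited intensity of a probe is its raw bead average from BeadStudio 3.4.0, neither background-subtracted nor normalized. Beside it the authors deposited a detection value, a fraction headed as a p-value that nevertheless rises with signal and was therefore taken as 1 minus p. The authors' own normalized table, for which the submitters' processing notes name lumi and Partek, was not used here, because its rows could not be tied to genes. The chip position of each array is not given in the sources used here.

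With limma 3.58.1 in R 4.3.3, signals were background-corrected (neqc, negative controls inferred from detection, offset 16), quantile-normalized and put on a log2 scale. Probes at 0.95 or more on at least 3 arrays were kept, and the brightest probe stood for a gene. Probe names were brought up to date through a gene table (27400 current symbols, 8300 older ones, 9581 unmatched names kept). All 9 arrays entered 1 linear model with a mean per group (lmFit, eBayes, two-sided), and Benjamini-Hochberg adjustment ran over all 13001 genes at a threshold of 0.05. Group errors are SD, errors of changes SE, and intervals 95%. The number of arrays limits the precision. In simulated data for IL6 minus PBS over 13001 genes, 43% of genes shifted by 1 log2 unit and 83% of those shifted by 2 were called, with 8 false calls. The simulation drew independent normal noise for each gene, with the same SD in all 3 groups. It held no array-wide shifts and no unequal group spreads, so its figures need not hold for these arrays.

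Genes were named by a rule: members past the threshold, the 5 highest and 5 lowest changes of each comparison, members with a fixed role, members with discordant probes or uneven detection, and the called genes and 2 largest changes of each other list. Exceptions are named where they occur, and some genes that the rule takes in are not reported here. The members, lists and rule were chosen with earlier results of these data known, and no list was tested as a set. Alternatives covered background, scaling, probe filter and choice, arrays fitted, moderation, weights, a replicate block, a second threshold and leaving out arrays. Another 3 were chosen after seeing the data.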

Additional observations from a re-analysis of the deposited data

How the results depend on the processing

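With 26 alternatives run, of which 23 were planned and 3 added after seeing the data, the count of called ribosomal protein genes was 0 in each of the 3 comparisons. The count over all genes ranged widely, for IL6 minus PBS between 1 (without IL6 replicate 1) and 1405 (median scaling), against 36. For IL11 minus PBS it ran between 0 (without IL11 replicate 1, 2 or 3, without IL6 replicate 1 or 3, with only the 2 groups fitted, or with the replicate block) and 353 (without PBS replicate 1), against 17. The median change of the ribosomal protein genes moved by more than the pooled spread of the array medians (0.137) with median scaling, to 0.095 for IL6 minus PBS and 0.252 for IL11 minus PBS. When single arrays were left out, it ran between -0.163 and 0.014 for IL6 minus PBS, between -0.053 and 0.065 for IL11 minus PBS, and between 0.024 and 0.240 for IL11 minus IL6. The ends at 0.014 and 0.024 were those without IL6 replicate 3, and the end at -0.053 was that without PBS replicate 1. Without PBS replicates 2 and 3 the medians were -0.096, 0.109 and 0.152. Of 120 changes of single members, 71 took the other sign in at least 1 alternative (165 of 2988 values), none of them called. Of the 6 gp130 response genes, the number called with IL6 ran between 0 (without IL6 replicate 1, or with only the 2 groups fitted) and 6 (median scaling), against 5. With IL11 it ran between 0 (the same 2 settings, the replicate block, without IL11 replicate 1, 2 or 3, without IL6 replicate 3, or without PBS replicates 2 and 3) and 5 (6 settings, median scaling among them), against 2. Leaving out an IL6 array acts on the IL11 minus PBS calls only through the shared estimate of spread. The cause of these differences was otherwise not tested.

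No pairing of mice by replicate number was visible. The correlation across genes of same-numbered arrays' deviations from their group means ran from -0.133 to 0.338. For arrays of different number and group it ran from -0.320 to 0.382. Genes are not independent replicates, and whether mice were handled in matched sets cannot be told from these values. With the replicate block 0 members were called in each comparison, the medians stayed at -0.104, 0.014 and 0.152, the all-gene counts were 20, 0 and 0, and 4 gp130 response genes were called with IL6 and 0 with IL11. A fit to the authors' deposited normalized values was not run, since its rows could not be tied to genes. The depth of an array has no count. A mean level of 8 or more was reached by 54 of the members. The exceptions were Rpsa, close to background, and Rpl21, at 7.35 for its brightest probe.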
